A study of Oryza sativa Indica Group with 2 samples.

Results

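The genes described here are the cysteine-rich receptor-like kinases of rice and the cysteine-rich repeat secretory proteins that share their extracellular domain. Members are the genes of the deposited table whose closest Swiss-Prot protein is named, in its primary name, a cysteine-rich receptor-like protein kinase or a cysteine-rich repeat secretory protein. There were 74 of them among 35677 genes, 56 kinases and 18 secretory proteins. RNA was sequenced from seedlings of Indica rice at the tillering stage, in 1 library of the transgenic line GRF7OE-1, which overexpresses the growth-regulating transcription factor OsGRF7, and 1 library of the wild type (WT). The line is a single transgenic line, and the promoter that drives the transgene is not given in the sources used here. The comparison is of the transgenic line with WT. Each group has 1 library, so every difference below lacks a replicate check and the conditions could not be tested against each other.

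Cysteine-rich receptor-like kinases span the plasma membrane. Outside the cell they carry repeats of a domain with conserved cysteines, called DUF26, and inside a serine/threonine kinase. The secretory proteins carry the outer domain without a kinase. In Arabidopsis, genes of the kinase family are known for responses to pathogens, to salicylic acid and to reactive oxygen species, and both families lie largely in tandem clusters in plant genomes. The Swiss-Prot names used below are those of the closest Arabidopsis protein, at a similarity of 43% to 81%, and do not establish the same function in rice.

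Levels are FPKM, the authors' read counts scaled to transcript length and library size. A fold is the plain ratio of the 2 FPKM values, followed in brackets by its 95% exact interval, computed from the numbers of reads. Such an interval reflects counting error alone, not how far plants of a group differ. The log2 ratio has a pseudocount of 1 FPKM added to both libraries, which pulls the ratios of low genes towards 0. About 17021472 reads lay in genes in GRF7OE and about 16824990 in WT. OsGRF7 (OS12G0484900) was at 70.7 FPKM in GRF7OE, against 5.10 FPKM in WT, as the labels imply. The 24 fixed green leaf markers, genes of light-harvesting proteins and the small subunit of Rubisco, summed to 46282 FPKM in GRF7OE and 36248 FPKM in WT, and all 20 that averaged 1 FPKM or more had a log2 ratio above 0. Once the libraries were scaled to equal FPKM sums this held for 18 of the 20. The 13 knotted-type homeobox genes, listed by name for the shoot meristem, summed to 296 FPKM in GRF7OE and 328 FPKM in WT. Whether each is confined to the meristem was not checked. The sum was led by OS06G0646600, at 146 FPKM in GRF7OE and 153 FPKM in WT. OS02G0182800 followed, at 60.9 FPKM in GRF7OE and 62.4 FPKM in WT. Of the 10 knotted-type genes that averaged 1 FPKM or more 8 had a log2 ratio below 0, with a median of -0.33, the direction of most members below. Past 2-fold on the log2 scale were OS07G0129700, 2.54-fold lower [2.10 to 3.09], and OS05G0129700, 2.97-fold lower [2.12 to 4.22]. On the plain ratio alone OS01G0302500 was past it too, 2.27-fold lower [1.53 to 3.41]. The 16 root markers summed to 476 FPKM in GRF7OE and 388 FPKM in WT, mostly from the cortical cell-delineating gene OS03G0103200, at 453 FPKM in GRF7OE and 345 FPKM in WT. Among the 5 that averaged 1 FPKM or more, OS03G0103100 was at 6.30 FPKM in GRF7OE and 31.6 FPKM in WT, 5.02-fold lower [3.75 to 6.83], and OS10G0349900 at 6.24 FPKM in GRF7OE and 1.57 FPKM in WT, 3.97-fold higher [1.94 to 8.91]. Of the 3 Casparian strip genes among them 2 had no read and OS06G0231050 was at 0.651 FPKM in GRF7OE and 0.340 FPKM in WT. The single marker genes are named after their values were seen. The 3 flower markers summed to 39.4 FPKM in GRF7OE and 39.3 FPKM in WT. Whether the makeup of the tissue has a part in the differences below was not tested, and in such samples fewer cells of a type cannot be told from less RNA per cell.

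Among cysteine-rich genes that averaged 1 FPKM or more, those past 2-fold were all lower in GRF7OE, and most others lay within 2-fold of WT in either direction. Of the 74 members 42 averaged 1 FPKM or more over the 2 libraries, or 56.8%, against 65.6% of all genes. Among those 42, 4 were at least 2-fold lower on the log2 scale and none was 2-fold higher. That is 9.52% lower, where 1.25% of the 23397 genes with that mean were 2-fold lower, and 0% higher, where 3.24% of all such genes were 2-fold higher and 4.49% were past 2-fold in either direction. Below 0 were 27 of the 42 log2 ratios and above 0 were 15, and none of these signs turned under a scaling to equal FPKM sums or to a median ratio of 1. The median log2 ratio was -0.09, against -0.01 over all such genes. The 16 members that averaged 5 FPKM or more had a median of 0.17, with 9 above 0 and 7 below. This turn of sign with level held for the 10 kinases among them, with a median of 0.23. It did not hold for the 6 secretory genes, with a median of -0.48. The split by level was chosen after the values were seen. The authors' deposited table calls 1 member significant, OS04G0659300, and 1.63% of the 25818 genes it tested, 0.352% as lower.

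**Figure D1:**
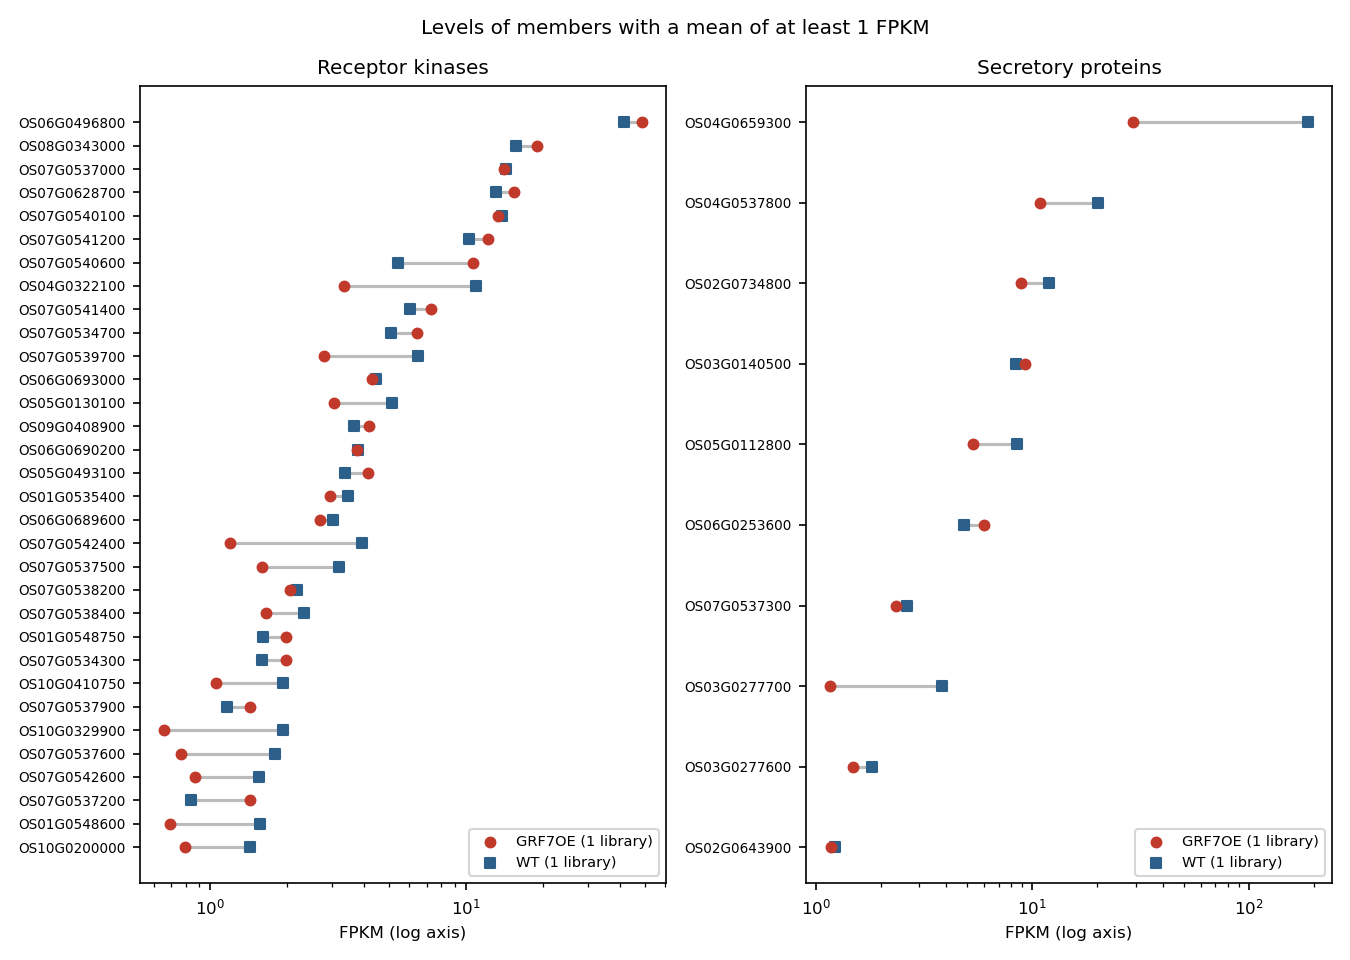
FPKM (log axis) of the 32 receptor kinases (left) and 10 secretory proteins (right) that averaged 1 FPKM or more, in the GRF7OE library (red circles) and the WT library (blue squares), ordered by mean level. The secretory protein gene OS04G0659300 has the widest gap, at 29.2 FPKM in GRF7OE and 188 FPKM in WT, while the most abundant kinase gene OS06G0496800 is at 48.7 FPKM in GRF7OE and 41.4 FPKM in WT.

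The secretory proteins held the largest single difference. OS04G0659300, closest to the putative Arabidopsis cysteine-rich repeat secretory protein 5 and 258 residues long, was at 29.2 FPKM in GRF7OE, against 188 FPKM in WT. It had 315 reads in GRF7OE and 2149 in WT, and was 6.43-fold lower [5.71 to 7.26]. Its reads were thus many in both libraries. In WT it was the most abundant member and the gene of rank 603 among all genes by FPKM. In GRF7OE it was at rank 5130, below the kinase gene OS06G0496800. This gene made up 37.8% of the summed FPKM of the 18 secretory genes in GRF7OE and 74.5% in WT. The whole sum was 77.2 FPKM in GRF7OE and 252 FPKM in WT, and without this gene 48.0 FPKM in GRF7OE and 64.4 FPKM in WT. In the authors' deposited table its FDR is 0, a value that compares these 2 libraries and not the conditions.

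A second secretory gene was past 2-fold, on far fewer reads. OS03G0277700, closest to secretory protein 55, was at 1.16 FPKM in GRF7OE and 3.82 FPKM in WT, from 22 and 72 reads, and was 3.28-fold lower [2.01 to 5.56]. Its neighbour by identifier, OS03G0277600, has the same closest protein and the same length of 265 residues. That neighbour was at 1.49 FPKM in GRF7OE and 1.83 FPKM in WT, 1.23-fold lower [0.708 to 2.14], within counting error. Reads of such similar neighbours may be shared out between them, and how the authors' counting treated reads that map to several genes is not given in the sources used here.

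The other abundant secretory genes differed less and not all in one direction. OS04G0537800, closest to secretory protein 15, was at 10.8 FPKM in GRF7OE and 20.1 FPKM in WT, 1.86-fold lower [1.53 to 2.27]. OS05G0112800, closest to secretory protein 55, was at 5.33 FPKM in GRF7OE and 8.46 FPKM in WT, 1.59-fold lower [1.13 to 2.26]. OS02G0734800, closest to secretory protein 12, was at 8.87 FPKM in GRF7OE and 11.9 FPKM in WT, 1.34-fold lower [1.02 to 1.77]. These 3 genes thus lay below WT by more than counting error. OS03G0140500, closest to secretory protein 11, was at 9.24 FPKM in GRF7OE and 8.39 FPKM in WT, and OS06G0253600, closest to secretory protein 2, at 6.0 FPKM in GRF7OE and 4.85 FPKM in WT. Both were within counting error, at 1.10-fold [0.895 to 1.36] and 1.24-fold higher [0.819 to 1.87]. Of the 10 secretory genes that averaged 1 FPKM or more, 8 had a log2 ratio below 0 and 2 above, with a median of -0.28, and of -0.18 without OS04G0659300. The 2 past 2-fold, both lower, are 20.0% of these 10, where 1.25% of all genes with that mean were 2-fold lower. Without OS04G0659300 it is 1 of 9, OS03G0277700, on 22 reads in GRF7OE and 72 in WT.

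Of the 8 secretory genes under that mean, 4 lie side by side by identifier on chromosome 8, from OS08G0136300 to OS08G0136800, and all have secretory protein 55 as closest protein. They had 5, 0, 4 and 7 reads in GRF7OE, against 0, 1, 0 and 1 in WT. The counts were higher in GRF7OE in 3 of the 4, but gene by gene too low to separate from counting error. Summed, the 4 genes were at 0.891 FPKM in GRF7OE and 0.105 FPKM in WT, a difference for which no interval was computed. A floor of 3 reads for a count of 0 puts OS08G0136300 at 1.67-fold higher and OS08G0136700 at 1.33-fold higher. These figures leave out the counting error of the 5 and 4 reads themselves. OS08G0136800 was 7.11-fold higher [0.914 to 321]. OS03G0564600 had 3 reads in GRF7OE and 11 in WT, and OS04G0197100 had 4 in GRF7OE and 1 in WT, both within counting error. OS03G0312300 and OS12G0608700 had no read in either library.

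The kinase genes as a group summed to nearly the same level in both libraries, 201 FPKM in GRF7OE and 202 FPKM in WT. Of the 56 kinase genes 32 averaged 1 FPKM or more. Among these, 2 were at least 2-fold lower on the log2 scale, or 6.25%, and none was higher. Of all genes with that mean 1.25% were 2-fold lower and 3.24% higher. The kinase genes had 13 log2 ratios above 0, 19 below and a median of -0.05. By counting error 7 of the 32 lay above WT, 11 below and 14 within it. Of the 44 kinase genes with enough reads for an interval at any level, 7 or 15.9% lay above and 12 or 27.3% below. Over all genes with such reads, also at any level, 21.8% lay above and 22.6% below. The authors' deposited table makes no call among the kinase genes.

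Of the 2 kinase genes past 2-fold, OS04G0322100 averaged 7.14 FPKM over both libraries and OS07G0542400 averaged 2.55 FPKM. OS04G0322100 was at 3.33 FPKM in GRF7OE and 10.9 FPKM in WT, from 35 and 122 reads, and was 3.29-fold lower [2.24 to 4.94]. Its closest protein is kinase 25, and its predicted protein has 281 residues. Kinase members range from 96 to 772 residues, and 17 of the 56 are under 400. OS07G0542400, closest to kinase 10, was at 1.19 FPKM in GRF7OE and 3.91 FPKM in WT, from 47 and 152 reads, also 3.29-fold lower [2.36 to 4.66]. In the authors' deposited table their FDR values are 0.0770 and 0.137, above the 0.05 of the authors' rule.

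On the plain ratio, with no pseudocount, 5 more kinase genes were at least 2-fold lower, so that 9 of the 42 members were and none was 2-fold higher. Over the 23364 genes with an average of 1 FPKM or more and values above 0 in both libraries, 2.3% were 2-fold lower on that measure and 5.13% higher. OS07G0539700 was at 2.78 FPKM in GRF7OE and 6.47 FPKM in WT, 2.32-fold lower [1.89 to 2.87], and its log2 ratio of -0.98 was the nearest outside the 2-fold limit. The adjacent genes OS07G0537500 and OS07G0537600 are closest to kinases 10 and 35. OS07G0537500 was at 1.59 FPKM in GRF7OE and 3.18 FPKM in WT, 2.0-fold lower [1.47 to 2.76]. OS07G0537600 was at 0.768 FPKM in GRF7OE and 1.78 FPKM in WT, 2.32-fold lower [1.55 to 3.54]. The other 2 lie on chromosomes 10 and 1 and rest on few reads. OS10G0329900 was 2.92-fold lower [1.48 to 6.17], on 12 reads in GRF7OE and 35 in WT. OS01G0548600 was 2.25-fold lower [1.06 to 5.10], on 11 reads in GRF7OE and 24 in WT. It shares its MSU identifier with OS01G0548750, which was 1.23-fold higher [0.561 to 2.71], so the split of reads between these entries is uncertain. Outside the 2-fold limit, OS10G0200000 was 1.80-fold lower [1.25 to 2.63] and OS10G0410750 1.83-fold lower [1.09 to 3.12], both at a mean under 2 FPKM.

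The most abundant kinase genes were equal to WT or slightly above it. OS06G0496800, closest to kinase 10, led with 48.7 FPKM in GRF7OE and 41.4 FPKM in WT, 1.18-fold higher [1.08 to 1.28]. OS08G0343000, closest to kinase 15, was at 18.9 FPKM in GRF7OE and 15.7 FPKM in WT, 1.21-fold higher [1.09 to 1.33]. OS07G0628700, closest to kinase 10, was at 15.4 FPKM in GRF7OE and 13.0 FPKM in WT, 1.18-fold higher [1.06 to 1.32]. These are the 3 highest kinase genes in GRF7OE, with intervals above 1. OS07G0541200 was at 12.1 FPKM in GRF7OE and 10.3 FPKM in WT, 1.18-fold higher [1.03 to 1.35]. OS07G0537000, closest to kinase 8, was at 14.1 FPKM in GRF7OE and 14.4 FPKM in WT. OS07G0540100, also closest to kinase 8, was at 13.3 FPKM in GRF7OE and 13.8 FPKM in WT. Both were within counting error. Among kinase genes that averaged 1 FPKM or more, the largest ratio on the higher side was that of OS07G0540600, closest to kinase 15, at 10.6 FPKM in GRF7OE and 5.43 FPKM in WT. It had 146 reads in GRF7OE and 77 in WT, 1.96-fold higher [1.48 to 2.61]. Its log2 ratio was 0.85. Of the 7 kinase genes above WT by counting error, 3 stayed so once the libraries were scaled to equal FPKM sums.

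Level and direction mostly went together among the kinase genes. Of the 10 that averaged 5 FPKM or more, 7 had a log2 ratio above 0 and the median was 0.23. The other 3 lay below 0, with OS04G0322100 the lowest at -1.46. Of the 22 with a mean between 1 and 5 FPKM, 16 had a log2 ratio below 0 and the median was -0.25. Over all genes in these bands, 49.1% had a log2 ratio above 0 in the upper band and 53.6% below 0 in the lower, with medians of -0.01 and -0.03. A scaling to equal FPKM sums left these counts of kinase genes as they were and took the medians to 0.14 and -0.32. These bands were chosen after the values were seen.

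**Figure D2:**
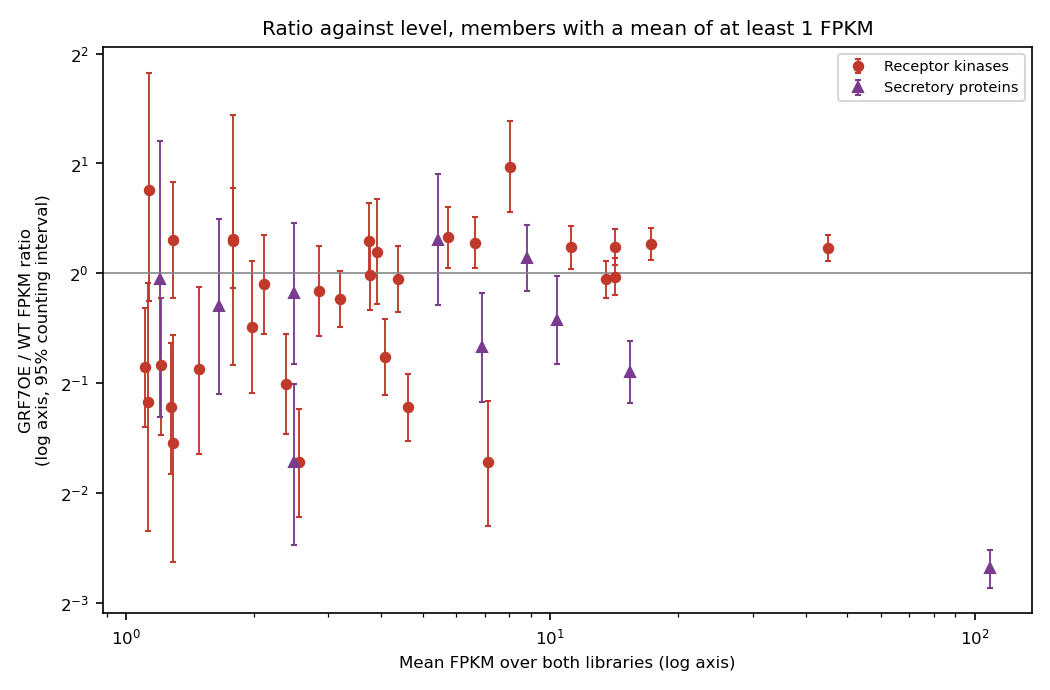
Ratio of FPKM in GRF7OE to FPKM in WT (log axis) against the mean FPKM of both libraries (log axis) for the 32 kinase genes (circles) and 10 secretory genes (triangles) that averaged 1 FPKM or more, with 95% counting intervals. The secretory gene at the far right and lowest is OS04G0659300, 6.43-fold lower, and the highest point is the kinase gene OS07G0540600, 1.96-fold higher.

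Counting error alone was passed by 24 of the 57 members that had reads in both libraries and more than 3 in at least 1 of them. That share of 42.1% is near the 44.4% of all genes with such reads. By direction, 7 members or 12.3% lay above WT, against 21.8% of all genes, and 17 or 29.8% lay below, against 22.6% of all genes. A scaling to equal FPKM sums moved these to 3 members or 5.26% above, against 16.7% of all genes. Below were then 19 or 33.3%, close to the 30.5% of all genes.

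The largest group by position is a run of 25 members on chromosome 7, from OS07G0534300 to OS07G0542600, 24 kinases and the secretory gene OS07G0537300. The table lists 60 genes between these identifiers, 35 of them with other descriptions. The run was described in this way after its values were seen. Of its 25 members 17 averaged 1 FPKM or more, 7 with a log2 ratio above 0 and 10 below, and 1 was past 2-fold, OS07G0542400. The median of -0.05 is close to the -0.08 of kinase genes elsewhere.

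Some neighbours within the run shared a direction and others did not. OS07G0539700 was 2.32-fold lower, the next member OS07G0540100 was within counting error at 1.04-fold lower [0.923 to 1.17], and the one after it, OS07G0540600, was 1.96-fold higher. OS07G0541200 and OS07G0541400 were each slightly higher, OS07G0541400 at 7.29 FPKM in GRF7OE and 6.01 FPKM in WT, 1.21-fold [1.03 to 1.43]. The next 4 members, from OS07G0541500 to OS07G0541900, had no read in either library. OS07G0542400 and OS07G0542600 at the end of the run were both lower. OS07G0542600 was at 0.871 FPKM in GRF7OE and 1.55 FPKM in WT, 1.79-fold lower [1.17 to 2.77]. At the start of the run OS07G0534700 was at 6.39 FPKM in GRF7OE and 5.09 FPKM in WT, 1.26-fold higher [1.04 to 1.52].

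**Figure D3:**
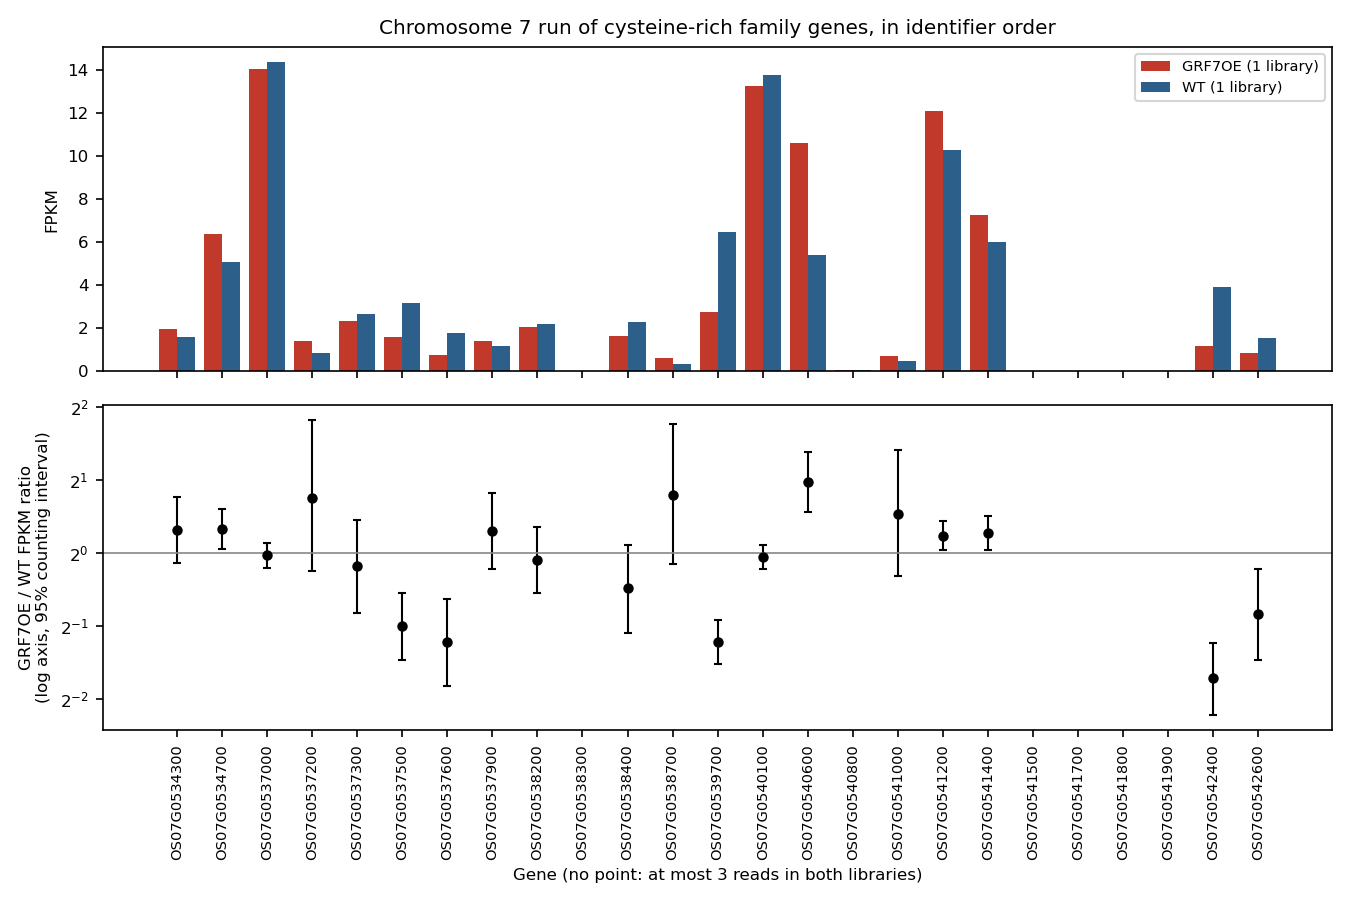
FPKM in GRF7OE (red) and WT (blue) of the 25 members of the chromosome 7 run in identifier order (top), and the ratio of GRF7OE to WT FPKM on a log axis with its 95% counting interval (bottom). Among members that averaged 1 FPKM or more the ratios range from OS07G0542400 at 3.29-fold lower to OS07G0540600 at 1.96-fold higher, and both directions occur along the run.

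The DUF26 kinase subfamily comes from a deposited description other than the Swiss-Prot name that chose the members. It labels 33 of the 56 kinase genes and none of the secretory genes. The subfamily written lc is the largest, with 20 genes, 11 of them averaging 1 FPKM or more, 4 above 0 and 7 below, and a median log2 ratio of -0.05. Of the 4 genes of subfamily ld, which are the last of the chromosome 7 run, 2 had no read and OS07G0542400 and OS07G0542600 were the lower genes given above. Both genes of subfamily lf were lower, OS01G0548600 and OS05G0130100, the last at 3.03 FPKM in GRF7OE and 5.14 FPKM in WT, 1.70-fold lower [1.34 to 2.16]. Both genes of subfamily la had a log2 ratio above 0, OS07G0534700 and OS05G0493100, the last at 4.12 FPKM in GRF7OE and 3.36 FPKM in WT, 1.23-fold higher [0.970 to 1.55]. The 4 genes of subfamily lh had a median of -0.07 and the 1 of lg, OS09G0408900, a log2 ratio of 0.16, and all 5 lay within counting error. The 23 kinase genes without such a label had 10 that averaged 1 FPKM or more, 5 on each side of 0.

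Of the 32 members under a mean of 1 FPKM, 11 had no read in either library and 3 more had at most 3 reads in both. None of the 8 members on chromosome 11 and none of the 3 on chromosome 12 reached that mean. Among the low members OS08G0179000 was below WT by more than counting error, at 0.446 FPKM in GRF7OE and 0.969 FPKM in WT, 2.17-fold lower [1.51 to 3.16]. OS07G0628900 had no read in GRF7OE and 4 in WT, a bound of at least 1.33-fold lower, which so few reads do not separate from counting error. For OS07G0628900 and the other low kinase genes except OS08G0179000 no difference was detectable at this depth. For the 5 members listed at 0 in 1 library, the log2 ratio of the authors' deposited table has the sign opposite to the FPKM values in 3, and directions here come from FPKM.

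Other receptor kinase families of the table were counted in the same way, on the log2 scale, beside the 1.25% lower and 3.24% higher of all genes. Wall-associated kinases had 1 gene 2-fold higher and none lower of 28, and L-type lectin kinases 1 higher and none lower of 33. G-type lectin kinases and proline-rich receptor-like kinases had none in either direction, of 37 and 10. Leucine-rich repeat receptor-like kinases had 6 higher and 1 lower of 156. The cysteine-rich kinases had none higher and 2 lower of 32, and these counts are too small to set the families apart. Log2 ratios below 0 made up 55.1% of the leucine-rich repeat genes and 59.4% of the cysteine-rich kinases. The single genes, named after their values were seen, were the wall-associated OS04G0127500, 3.95-fold higher [2.69 to 5.97], and the lectin kinase OS07G0130100, 2.75-fold higher [2.12 to 3.62]. Of the leucine-rich repeat genes, OS01G0957100 was 2.88-fold higher [2.54 to 3.27]. The 1 lower gene, OS09G0349700, was 4.84-fold lower [2.11 to 12.9] on 7 reads in GRF7OE and 34 in WT. The authors' deposited table calls OS04G0127500 and OS01G0957100 significant. Medians were 0.09 for wall-associated, 0.04 for L-type lectin, -0.01 for G-type lectin, 0.05 for proline-rich and -0.06 for leucine-rich repeat kinases, against -0.05 for the cysteine-rich kinases. The difference between families was not tested, since each gene was measured in 1 library per group.

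**Figure D4:**
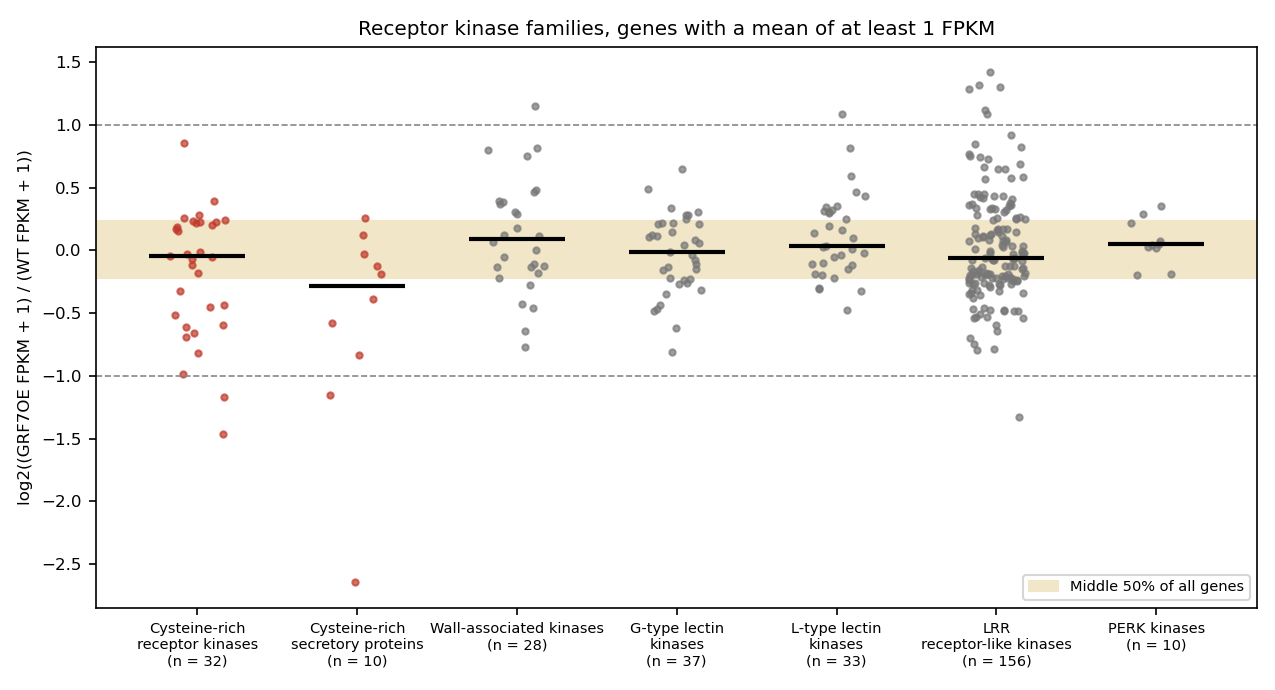
Log2 ratio of GRF7OE to WT, with a pseudocount of 1 FPKM, for each gene that averaged 1 FPKM or more in the cysteine-rich groups (red) and other receptor kinase families (grey). Black bars are medians, dashed lines mark 2-fold, sideways spread is for legibility, and the band holds the middle 50% of all genes. The points of the cysteine-rich groups reach -2.64 and 0.85, those of leucine-rich repeat kinases -1.33 and 1.42.

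Genes of proteins known to act with receptor kinases at the plasma membrane had list medians close to 0. The respiratory burst oxidases, which make apoplastic reactive oxygen, had none of 8 past 2-fold and a median log2 ratio of 0.03. Their outermost genes were OS01G0734466, 1.36-fold lower [1.18 to 1.57], and OS01G0734200, 1.29-fold lower [0.999 to 1.66]. The co-receptors of the SERK type had none of 8 past 2-fold and a median of -0.01, with OS04G0457800 at 70.6 FPKM in GRF7OE and 53.5 FPKM in WT, 1.32-fold higher [1.24 to 1.40]. OS01G0809300 of the same list was 1.27-fold higher [1.20 to 1.35]. The authors' deposited table calls 1 gene of the list, OS08G0174800, which averaged under 1 FPKM. It was at 1.32 FPKM in GRF7OE and 0.0203 FPKM in WT, from 130 and 2 reads, 65.0-fold higher [17.6 to 542]. It is named here for that call.

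Among genes that averaged 1 FPKM or more, cytoplasmic kinases held the 2 of these lists that were past 2-fold on the log2 scale. Of 9 kinases of the PBS1 type, which in Arabidopsis act below immune receptors, 1 was 2-fold higher and none lower, and the median was -0.04. That gene, OS05G0398800, was at 20.9 FPKM in GRF7OE and 4.78 FPKM in WT, 4.37-fold higher [3.61 to 5.33], which the authors' deposited table calls significant. OS05G0207700 of the same list was 1.78-fold lower [1.40 to 2.28]. Of 43 mitogen-activated protein kinases and the kinases above them, 1 was 2-fold higher on the log2 scale and none lower, with a median of -0.02. OS05G0545300, closest to the kinase YODA, was 3.64-fold higher [2.48 to 5.47], also a call of the authors' deposited table. On the plain ratio OS03G0292700, closest to ANP1, was 2.31-fold lower [1.27 to 4.42] on 16 reads in GRF7OE and 40 in WT. Its log2 ratio was -0.72. The calcium-dependent protein kinases had none of 20 past 2-fold and a median of 0.00, with OS01G0832300 1.34-fold higher [1.19 to 1.5] and OS04G0503200 1.48-fold lower [0.968 to 2.28]. No gene of the table has plasmodesmata-located or ginkbilobin, proteins with the same outer domain, in its primary Swiss-Prot name.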

How the data were processed

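The submitters' processing notes name Bowtie and Cuffdiff. Versions and genome build: not given in the sources used here. Levels are the FPKM that the authors deposited for 35677 genes. The normalised count columns, a signal per gene deposited by the authors, are whole multiples, within 0.05, of 0.963 in GRF7OE and 0.954 in WT for 99.3% and 99.2% of genes, and dividing by that step gave reads. The 1 member off whole numbers, OS07G0537500, was rounded. The p-value and FDR columns are the authors' deposited comparison of 2 libraries. Their deposited log2 ratio was checked against FPKM and not used. The header of the deposited direction column names an RNAi line where the other columns name GRF7OE, and that column was not used. In the columns named GRF7OE the level of OsGRF7 is the higher one.

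Folds are FPKM ratios, with Clopper-Pearson 95% intervals of the read share, and a floor of 3 reads where a library had none. Named genes were the members past 2-fold at a mean of at least 1 FPKM, those called by the authors, the 6 most abundant kinases and secretory proteins, 3 on each side of the limit, and 2 genes per pathway list; other members are named to account for them. Members and lists were chosen with earlier results of these data known. The chromosome 7 run, the bands of level, the plain-ratio count and the interval count were chosen after the data were seen. Calls and intervals were run on simulated reads that held counting error alone, the error that the intervals assume. Such a run cannot check for differences between plants or libraries. The planned motif count in the proteins was not run, and no coordinates are given since none of the members could be linked to the RefSeq gene table. Alternatives were other pseudocounts, filters, scalings, fold sizes and thresholds on the authors' calls. Scripts ran under Python 3.11.15 with pandas 2.3.3, NumPy 2.4.6 for arrays, SciPy 1.17.1 for intervals, and Matplotlib 3.10.9 for drawing.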

Additional observations from a re-analysis of the deposited data

How the results depend on the processing

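Among members that averaged 1 FPKM or more, the absence of one 2-fold higher held under every alternative except the 1.5-fold limit, which gave 1, a kinase. For lower members the alternatives could not show this. With no filter, the pseudocount of 1 FPKM keeps a gene under 1 FPKM in GRF7OE from being 2-fold higher. On the plain ratio some of these low members were past 2-fold, in both directions. The number of members 2-fold lower, 4 as reported, was 8 with a pseudocount of 0.1, 8 from the deposited count columns, 9 from the plain ratio (added after the data were seen), 11 at 1.5-fold, 2 with a minimum mean of 5 FPKM and 1 at 3-fold. For the kinases, 2 as reported, it was 6, 6, 7, 8, 1 and 0 under these settings, and 4 with a pseudocount of 0.5. For the secretory proteins, 2 as reported, it was 1 with that minimum and 1 at 3-fold. All genes 2-fold lower made up 2.19% with a pseudocount of 0.1, 2.16% from the count columns and 1% with a minimum mean of 5 FPKM, and 4.79% were 1.5-fold lower. A minimum of 5 FPKM turned the median log2 ratio of members to 0.17 and of kinases to 0.23. Fewer genes remain there, and 7 of the 10 kinases left lie above 0. The same minimum took the median of the secretory proteins to -0.48. With no filter that of the secretory proteins was -0.10. At that minimum the medians of G-type lectin kinases and respiratory burst oxidases also changed sign, to 0.12 and -0.044. The folds of the 17 members named by the fixed rule stayed inside their counting intervals under both scalings and in the count columns. In the count columns OS06G0690200 and OS06G0693000 lay above WT, where their log2 ratios from FPKM were -0.01 and -0.04. The authors' call of OS04G0659300 held at both other thresholds. No paired analysis was possible because each group has 1 library. Depth limits the 32 members under a mean of 1 FPKM, of which 14 had at most 3 reads in both libraries.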
